A study of Mus musculus with 6 samples.

Results

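The replication stress checkpoint genes were examined in mouse embryonic fibroblasts (MEFs) with and without MCM8. They are 10 of the 55565 genes in the deposited gene tables, taken from the tables by gene symbol, under a rule that uses no measured value, although the set was proposed with earlier results of these data known: the kinase genes Atr and Atm, the genes for the ATR partner ATRIP and the activators TOPBP1 and ETAA1 (Atrip, Topbp1 and Etaa1), the mediator genes Clspn, Timeless and Tipin, and the genes of the checkpoint kinases CHK1 and CHK2 (Chek1 and Chek2). All 10 were found, and all 10 entered the test of 26898 genes.

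RNA was sequenced from 3 WT (Mcm8+/+) and 3 KO (Mcm8-/-) libraries, named WT1 to WT3 and KO1 to KO3, to ask how loss of MCM8 affects gene expression in MEFs. The KO allele, made with CRISPR-Cas9, lacks an exon of Mcm8, which shifts the reading frame. Both genotypes came from trunks of E13.5 embryos of Mcm8+/- parents of C57BL/6J and ICR mixed ancestry, both were immortalized with the same lentivirus, SV40gp6, selected with puromycin, and neither received a further treatment. The study's methods call the 3 libraries of a genotype biological repeats but do not say whether they stem from different embryos or different cultures of the same cells. The p-values below therefore concern these libraries only. Those of the edgeR fit to all libraries take the spread of each gene from the trend across genes.

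When a replication fork stalls, single-stranded DNA coated by RPA recruits the kinase ATR through its partner ATRIP, and ATR is then switched on by TOPBP1 or ETAA1. Claspin, together with the TIMELESS-TIPIN pair that travels with the fork, brings CHK1 to ATR, and active CHK1 holds back the cyclin-dependent kinases. ATM and its substrate CHK2 form the sister branch that answers double-strand breaks. These are events of protein binding and phosphorylation, which RNA levels do not measure. The SV40 large T antigen is known to bind p53 and RB, which act downstream of this pathway and at the entry into S phase, and both genotypes carry it.

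Of the 10 checkpoint genes, 1 was lower in KO, 0 were higher and 9 did not pass the test (edgeR quasi-likelihood test, Benjamini-Hochberg adjusted p below 0.05). The gene that fell was Atr, whose level in KO was 78.0% of that in WT. Among all genes tested 9.00% passed, 4.97% higher and 4.03% lower in KO. All 10 members also had counts above edgeR's default filter, and among the 14332 genes of which this holds 16.3% passed, 7.40% lower in KO. The share among the members, 10.0%, is near that background. With the fold threshold of the study, a change above 2-fold in addition to the adjusted p, 0 members were DEGs by edgeR and 0 by DESeq2, against 2.42% of all genes, while 3 members (Atr, Chek1 and Timeless) had an unadjusted edgeR p below 0.05, as did 17.9% of all genes. The median log2 fold change of the members was -0.03, beside 0.01 for all genes tested.

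**Figure D1:**
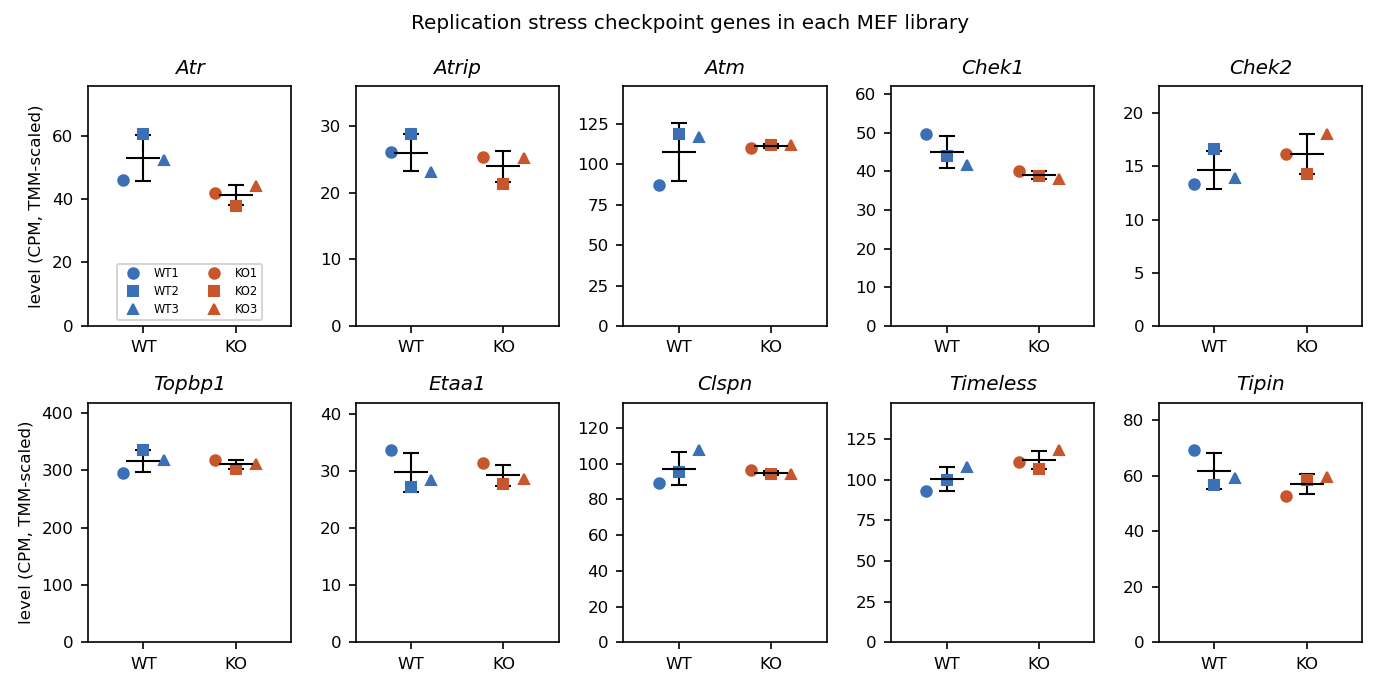
Level of each of the 10 checkpoint genes (CPM, counts scaled to library size with TMM factors, axis from 0) in the 3 WT and 3 KO libraries, with one marker shape per library and the mean and SD of each genotype in black. The genotypes are apart only for Atr (WT from 45.9 to 60.5, KO from 37.7 to 44.0) and Chek1 (WT from 41.7 to 49.7, KO from 38.2 to 40.2).

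The RefSeq promoters of 3 members are shown as they bear on whether the members share a cell cycle element: that of Atr, the 1 member that passed the test, and those of Topbp1 and Clspn, which carry the same E2F letters. Each run is 300 bases, from 250 before to 50 after the annotated start, written 5′ to 3′ on the gene's strand from GRCm38.p6. Capitals mark E2F letters (TTTGGCGC, TTTCCCGC, TTTCGCGC or TTTGCCGC) or CCAAT on either strand.
Atr, chr9:95857347-95857646, plus strand: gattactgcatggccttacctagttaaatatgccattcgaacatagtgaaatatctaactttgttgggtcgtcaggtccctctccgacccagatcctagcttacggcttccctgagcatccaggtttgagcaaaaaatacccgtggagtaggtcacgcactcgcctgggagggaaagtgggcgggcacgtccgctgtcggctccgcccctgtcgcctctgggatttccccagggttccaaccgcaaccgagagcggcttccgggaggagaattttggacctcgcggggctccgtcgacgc
Topbp1, chr9:103305077-103305376, plus strand: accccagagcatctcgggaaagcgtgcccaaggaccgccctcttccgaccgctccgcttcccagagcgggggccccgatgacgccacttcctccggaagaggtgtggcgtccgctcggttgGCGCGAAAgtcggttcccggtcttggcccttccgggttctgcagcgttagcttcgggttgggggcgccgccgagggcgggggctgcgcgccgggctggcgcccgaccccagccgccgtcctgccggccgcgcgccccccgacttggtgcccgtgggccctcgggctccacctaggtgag
Clspn, chr4:126556730-126557029, plus strand: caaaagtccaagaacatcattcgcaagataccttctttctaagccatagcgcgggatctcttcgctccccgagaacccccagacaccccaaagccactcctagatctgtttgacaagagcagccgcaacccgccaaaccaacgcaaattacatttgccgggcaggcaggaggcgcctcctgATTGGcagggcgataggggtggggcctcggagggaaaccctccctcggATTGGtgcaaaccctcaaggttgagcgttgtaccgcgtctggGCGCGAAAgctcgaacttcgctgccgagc
Promoters of 9 of the 10 members were matched, all but Tipin. The E2F letters lay in those of Topbp1, Clspn and Chek2, and in 744 of 32851 RefSeq promoters (2.26%). In Topbp1 and Clspn the letters were TTTCGCGC on the opposite strand, 129 to 122 bases before the start and 21 to 28 bases after it. The letters CCAAT, found in 37.4% of promoters, were present in Atrip, Atm, Chek2, Etaa1 and Clspn. The letters TTTGAA, the core of the element named CHR, were in 17.9% of promoters and in no member. The promoters of Atr, Chek1 and Timeless held none of these letters, and such a match or its absence describes the window only. The Chek1 window ended in gcgggaa, so the E2F letters gcgggaaa (TTTCCCGC on the opposite strand) could not be found across its end. E2F letters other than those named were not searched.

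ATR is the apical kinase of the fork checkpoint and is essential in dividing cells. The Atr gene is listed at chr9:95739650-95833834 on the plus strand, in the coordinates of the tables, for which the study's methods name an Ensembl release on GRCm39. Its level was 45.9, 60.5 and 52.2 CPM (counts scaled to library size) in WT1 to WT3 and 41.9, 37.7 and 44.0 CPM in KO1 to KO3. Every KO library was below every WT library, although KO3 and WT1 lay close to each other. The mean fell from 52.9 ± 7.32 to 41.2 ± 3.19 CPM (SD, n = 3 each), a log2 fold change of -0.36 (SE 0.087, 95% interval from -0.53 to -0.19, edgeR adjusted p = 0.000819). The exact permutation test over the libraries, two-sided, gave p = 0.1, the smallest value that 3 against 3 allows. Genotypes without overlap, as in Atr, were seen in 21.6% of all genes and in 33.2% of those with counts above the default filter.

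Atr was lower in KO under every alternative run, but whether it passed the test varied. Atr passed with larger adjusted p-values in DESeq2 (0.0174), with edgeR's default filter (0.0272, edgeR) and with FPKM above 0 in every library (0.0240, edgeR). Without WT2, its highest WT library, the log2 fold change was -0.26 (edgeR adjusted p = 0.0652), and without KO2, its lowest KO library, it was -0.30 (adjusted p = 0.0610). A limma test on log2(FPKM + 1) gave -0.24 with an adjusted p of 0.372, a test in which 912 genes passed in place of 2420. Fits added after the data were seen took out the trend of each library with gene length. In these, Atr passed with all libraries (edgeR adjusted p = 0.000112) and in each of the 6 fits that left out 1 library. There the log2 fold changes were from -0.41 to -0.30 and the edgeR adjusted p-values up to 0.0194. With all libraries 2923 genes passed with this offset, against 2420 without it. Without KO2 these counts were 2220 and 1768, and without WT1 they were 3144 and 3274. Without KO2 the log2 fold change of Atr was -0.30 with and without the offset, while its SE was 0.093 and 0.106.

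**Figure D2:**
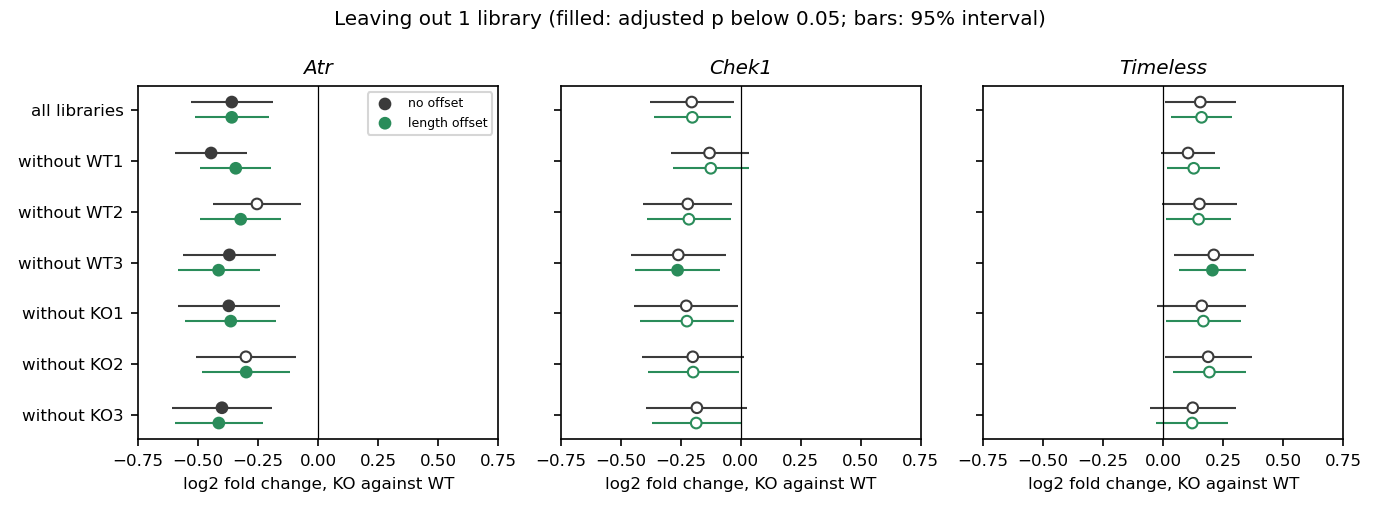
Log2 fold change (KO against WT, with 95% interval) of Atr, Chek1 and Timeless with all libraries and with each library left out, in edgeR without (grey) and with (green) an offset for gene length. Filled points have an adjusted p below 0.05: Atr lost this without WT2 (-0.26) and without KO2 (-0.30) but not with the offset, and Chek1 and Timeless passed only without WT3 with the offset.

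ATRIP holds ATR on RPA-coated DNA, and each protein is known to stabilise the other. Atrip was at 26.2, 28.9 and 23.2 CPM in WT and at 25.4, 21.3 and 25.3 CPM in KO, so the genotypes overlapped. Its log2 fold change was -0.11 with a 95% interval from -0.32 to 0.09 (edgeR adjusted p = 0.614), and it ran from -0.20 without WT3 to -0.033 without WT2. Levels of different genes were compared per length, as FPKM (fragments per kilobase of listed gene length, scaled to library size). The log2 ratio of Atr to Atrip in FPKM was -0.71 ± 0.19 in WT and -0.94 ± 0.052 in KO, a difference of -0.23 (exact permutation p = 0.2, where 0.1 is the smallest possible). WT2 (-0.66) and WT3 (-0.55) lay above every KO library and WT1 (-0.91) among them, and without WT1 the difference was -0.34. The small nuclease gene Trex1, which lies within the Atrip locus on the same strand, is listed at 0 in all 6 libraries. Whether reads shared by both genes were left out of the Atrip count was not tested.

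The other apical kinase, ATM, answers double-strand breaks. Atm was at 87.2, 118.8 and 117.1 CPM in WT1 to WT3 and at 110.0, 112.2 and 112.3 CPM in KO1 to KO3. The KO values lay within the WT range, which was set by the single low library WT1. The log2 fold change was 0.05 (95% interval from -0.10 to 0.19, edgeR adjusted p = 0.764), and without WT1 it was -0.08, so its sign hung on that library. The log2 ratio of Atr to Atm in FPKM was from -2.36 to -2.12 in WT and from -2.76 to -2.54 in KO, without overlap. The mean ratio differed by -0.42 between the genotypes (exact permutation p = 0.1, adjusted p = 0.300 over the 6 pairs of members compared). With each library left out in turn this difference stayed between -0.49 and -0.35.

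TOPBP1 and ETAA1 are the activators of ATR, the first acting with the 9-1-1 clamp and the second binding RPA directly. Topbp1 had the highest count of the members, at 295.3, 334.4 and 318.4 CPM in WT and 318.5, 302.4 and 310.6 CPM in KO. Its log2 fold change of -0.03 had the narrowest interval of the 10, from -0.16 to 0.11 (edgeR adjusted p = 0.876). Etaa1 was at 33.5, 27.2 and 28.3 CPM in WT and 31.3, 27.8 and 28.6 CPM in KO. For Etaa1 too the KO values lay inside the WT range, and its log2 fold change was -0.02 (95% interval from -0.21 to 0.18, edgeR adjusted p = 0.953). The log2 ratio of Topbp1 to Etaa1 in FPKM was 1.71, 2.19 and 2.07 in WT1 to WT3 and 1.92, 2.02 and 2.02 in KO1 to KO3. Low WT1 and higher WT2 and WT3 lay on either side of the KO values, so that the difference between the means was -0.0045 with all libraries and -0.14 without WT1.

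The mediators showed no change that passed the test. Clspn, which encodes the adaptor claspin, was at 89.0, 95.4 and 107.4 CPM in WT and at 96.3, 94.1 and 94.2 CPM in KO (log2 fold change -0.04, 95% interval from -0.19 to 0.11, edgeR adjusted p = 0.820). Timeless was at 93.2, 100.01 and 107.8 CPM in WT and at 110.9, 106.7 and 117.8 CPM in KO. The genotypes of Timeless overlapped by 1 library on each side, WT3 and KO2. Its log2 fold change was 0.15 (SE 0.075, 95% interval from 0.0070 to 0.30), with an unadjusted p of 0.0401 and an adjusted p of 0.243 in edgeR. Tipin was at 69.1, 56.7 and 59.1 CPM in WT and at 52.7, 58.4 and 59.6 CPM in KO, with a log2 fold change of -0.11 (95% interval from -0.28 to 0.05, edgeR adjusted p = 0.528) that was -0.029 without WT1.

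TIMELESS and TIPIN form an obligate complex, so the ratio of their transcripts was taken in each library. The log2 ratio of Timeless to Tipin in FPKM was -1.28, -0.89 and -0.84 in WT1 to WT3 and -0.64, -0.84 and -0.73 in KO1 to KO3. Every KO value was above every WT value, but WT3 and KO2 were nearly equal and WT1 stood apart. The mean differed by 0.27 (exact permutation p = 0.1, adjusted p = 0.300 over 6 pairs), and by 0.13 without WT1.

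CHK1 and CHK2 are the kinases that carry the signal onwards. Chek1 was at 49.7, 43.9 and 41.7 CPM in WT and at 40.2, 38.8 and 38.2 CPM in KO, again without overlap between the genotypes. Its mean of 45.1 ± 4.13 CPM for WT stood beside 39.0 ± 1.03 CPM for KO (SD, n = 3 each). The log2 fold change of -0.20 (SE 0.089, 95% interval from -0.38 to -0.03) did not pass the test across all genes (unadjusted p = 0.0223, adjusted p = 0.165, edgeR), and without WT1 it was -0.13. Chek2 had the lowest count of the members, at 13.3, 16.7 and 13.9 CPM in WT and 16.2, 14.3 and 18.0 CPM in KO. Its interval was correspondingly the widest, from -0.09 to 0.38 around a log2 fold change of 0.15 (edgeR adjusted p = 0.595). With 1 library left out it ran from 0.070 (without KO3) to 0.25 (without WT2). The log2 FPKM ratio of Chek1 to Clspn differed by -0.17 between KO and WT (exact permutation p = 0.4) and that of Chek1 to Chek2 by -0.35 (exact permutation p = 0.2), both with overlapping genotypes. Without WT1 these differences were -0.038 and -0.21.

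Across the 9 members that did not pass, the 95% intervals of the fold change ran from 0.769 (Chek1, lower end) to 1.30 (Chek2, upper end). None of the 10 intervals reached a 2-fold change in either direction. The intervals come from a fit in which each gene took the spread of the trend across genes, and so do not carry any larger spread of a single gene, such as that of Atm in WT (SD 17.8 CPM, against 1.26 CPM in KO). This fit gave Atr an SE of 0.087, against 0.114 in DESeq2 and 0.144 in limma on log2(FPKM + 0.1).

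**Figure D3:**
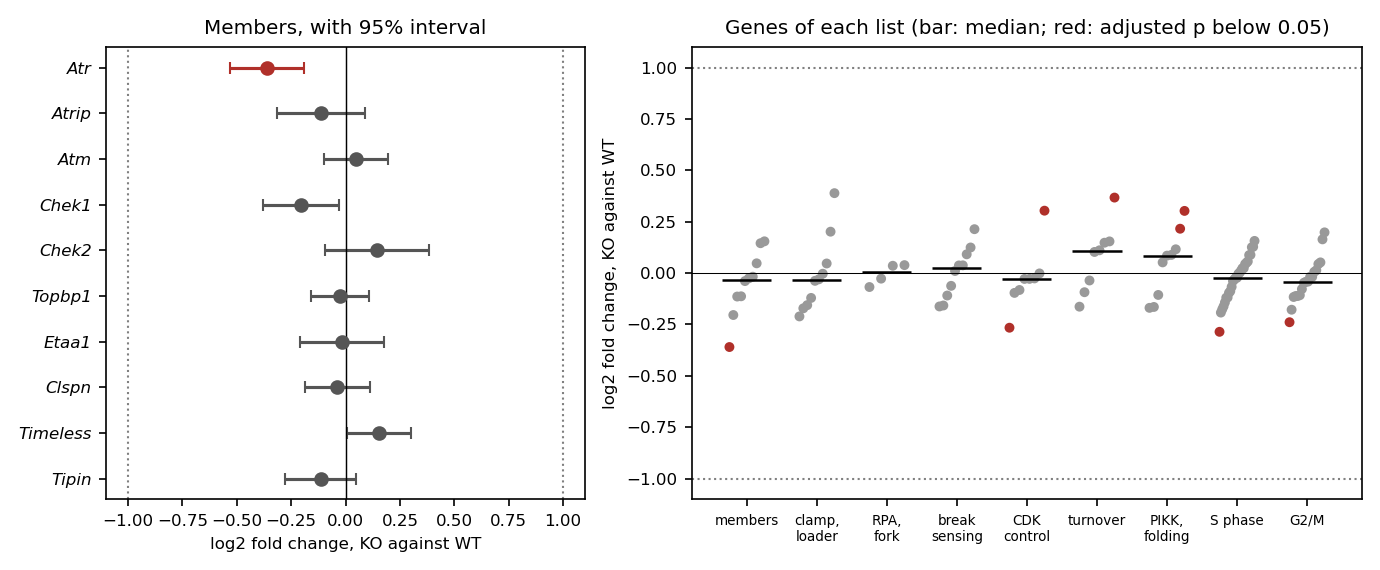
Left, log2 fold change (KO against WT) of the 10 members with the 95% interval. Right, the same quantity for each gene of the members, of the 6 pathway lists and of the S-phase and G2/M lists (genes with a mean of at least 1 CPM; cell type markers are not drawn). Red marks an adjusted p below 0.05, bars are list medians and dotted lines mark 2-fold changes. Of the members only Atr (-0.36) is red, and no gene shown reaches a dotted line.

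The spread of the members differed between the genotypes. The SD of CPM was smaller in KO than in WT for 9 of the 10, all but Chek2 (1.79 in WT and 1.87 in KO). The same held for 59.4% of all genes tested and for 68.4% of those with counts above the default filter, so it is not read as particular to the members. In each WT library the level of a gene relative to the other libraries of the genotype moved with the length listed for it. For the shortest of 5 equal classes of genes, up to 2097 bases, the median log2 difference of WT1 from WT2 and WT3 was 0.16, and for the longest class, from 7324 bases, it was -0.16. WT2 ran the other way, from -0.13 to 0.10, and each KO library stayed within 0.013 of 0 in every class.

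Some members deviated in the direction of this trend and others did not. In WT1 the long genes Atm and Atr deviated by -0.43 and -0.29 on the log2 scale, beside a median of -0.16 for their class, and the short Tipin by 0.25, beside 0.16. Chek1 and Etaa1, of middle length, deviated by 0.21 and 0.27, where the median of their class was 0.012. Chek2, at 3001 bases, went against the trend with -0.19. The mean of the genotypes did not carry the trend: the median log2 fold change between KO and WT was between -0.0085 and -0.0004 in the 5 length classes. How far the trend set the spread of each member was not tested beyond the fits with a length offset given here.

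**Figure D4:**
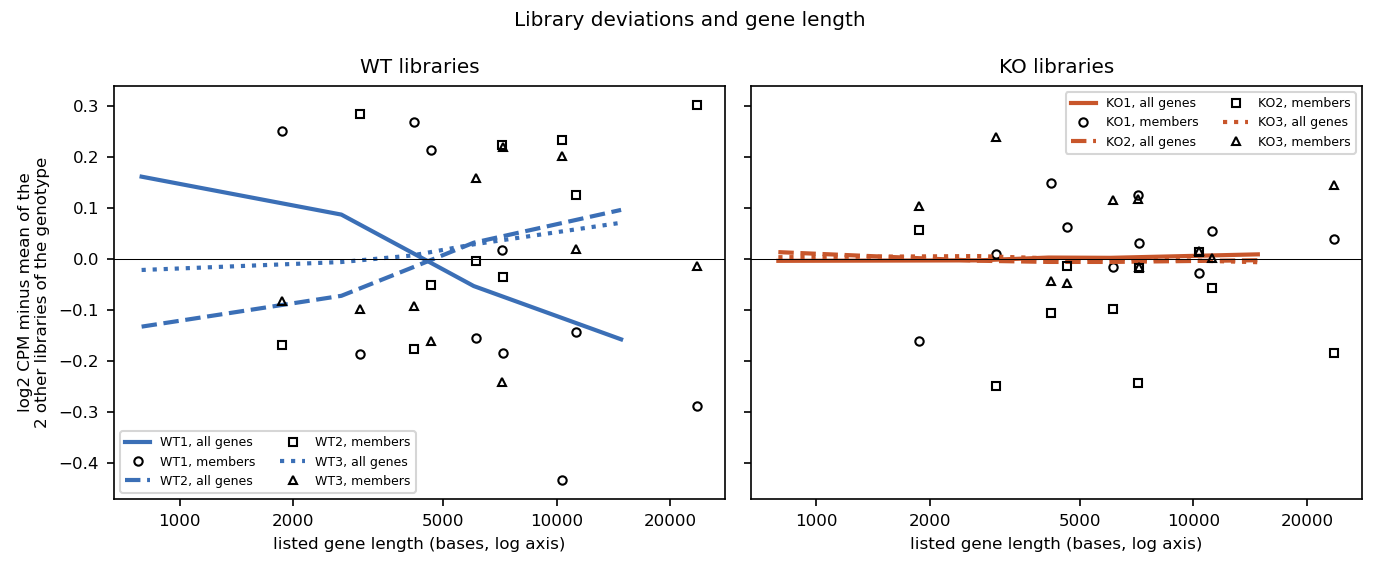
Log2 CPM of a library minus the mean of the 2 other libraries of its genotype, against the listed gene length (log axis), for WT (left) and KO (right). Lines join the medians of 5 classes of all genes by length, and open markers are the 10 members. In WT1 the line falls from 0.16 to -0.16, while the KO lines stay within 0.013 of 0.

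The members spanned a wide range of levels per length. In FPKM the order was Tipin (mean of the 6 libraries 31.6), Topbp1 (27.8), Timeless (17.3), Clspn (13.3), Atm (10.6), Chek1 (9.04), Etaa1 (7.01), Chek2 (5.11), Atrip (3.49) and Atr (1.98). Ranges over the libraries overlapped between the neighbours Tipin and Topbp1 and between Atm and Chek1, and not between the other neighbours. The fork-bound mediators thus stood above the kinases, and the sensor pair Atr and Atrip stood last in FPKM.

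FPKM depends on the length that the table gives each gene. For Atr 23629 bases are listed, 2.92 times its longest coding transcript in GENCODE M21 (8102 bases), and the factors for Atrip and Topbp1 were 2.78 and 2.15. Per kilobase of the longest coding transcript, Topbp1 came first (59.96 CPM per kilobase), followed by Tipin (32.2), Timeless (23.8), Clspn (19.1), Atm (11.2), Chek1 (11.1) and Atrip (9.74). Etaa1 (7.04), Chek2 (6.77) and Atr (5.80) came last by the mean of the 6 libraries, in an order that neither genotype showed: it was Etaa1 (7.05), Atr (6.48) and Chek2 (6.38) by the WT means and Chek2 (7.16), Etaa1 (7.04) and Atr (5.13) by the KO means. Ranges overlapped from each gene to the next from Atm to Atrip and from Etaa1 to Atr. Atr was thus the lowest in KO on both scales, but in WT only in FPKM, and on the second scale its range, from 4.72 to 7.43, overlapped that of Chek2. This choice of length does not alter the comparison of the genotypes within a gene.

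**Figure D5:**
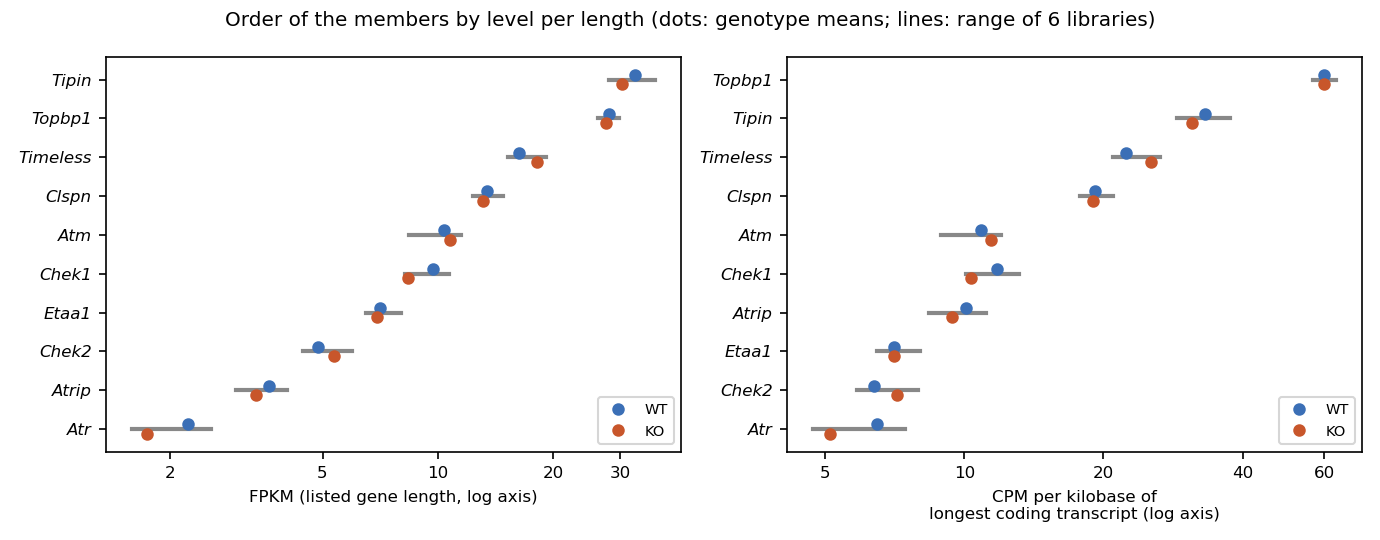
Order of the 10 members by level per length, in FPKM with the listed gene length (left) and per kilobase of the longest coding transcript (right), both on log axes. Dots are the means of WT and KO, lines the range of the 6 libraries. Topbp1 and Tipin change places and Atrip moves from the ninth to the seventh place, while Atr is the lowest by the mean of the 6 libraries on both (1.98 and 5.80), with the WT mean of Chek2 (6.38) just below that of Atr (6.48) on the right.

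Of the 10 members, 6 lie on chromosome 9 (Atr, Atrip, Atm, Chek1, Topbp1 and Tipin), which holds 898 of the 16117 protein-coding genes tested (5.57%), and none lies on chromosome 2 with Mcm8. On chromosome 9 as a whole 7.68% of the genes tested passed. Within 1 Mb of Atr, 2 of 19 other genes with counts above the default filter passed (10.5%). Features that overlap a member held few counts. Antisense to Atr, the lncRNAs Gm16794 and 1700065D16Rik held 66 and 15 counts over the 6 libraries, 1.43% and 0.324% of the Atr counts. Gm12936 over Clspn held 18 counts (0.188%) and Gm24289 in Tipin 17 (0.292%), while Gm11284, a pseudogene of Etaa1, held 3. The tables do not state whether counting used strand, and the 4 processed pseudogenes of Topbp1 were listed at 0.

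Other genes of the pathway were read from 6 lists of 50 genes in all. Of these, 4 rose in KO, 1 fell and 45 did not pass, which is 10.0%, against 9.00% of all genes and 16.3% of the genes above the default filter, to which all but 1 of the 50 belong. The 11 genes of the 9-1-1 clamp and its loader, the 4 of RPA and the fork scaffold and the 10 of break sensing and ATM mediation held 0 that passed in edgeR, with 2, 0 and 1 of them at an unadjusted p below 0.05. DESeq2 called 3 of the 50 in all. The gene with the highest FPKM of each of these lists was Rfc4, a clamp loader subunit, with a log2 fold change of -0.04, Rpa1, the large RPA subunit, with -0.07, and H2ax, the histone variant phosphorylated at breaks, with 0.09.

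Among the 8 genes of CDK control, Plk1 and Pkmyt1 passed in opposite directions. Plk1, a mitotic kinase that ends the checkpoint, was at 112.9, 109.2 and 118.5 CPM in WT and 138.2, 136.6 and 145.8 CPM in KO, a clear gap between the genotypes. It rose by 0.30 on the log2 scale (SE 0.074, edgeR adjusted p = 0.000872). Pkmyt1, a kinase that inhibits CDK1, fell from 44.6 ± 2.26 to 37.1 ± 3.004 CPM, a log2 fold change of -0.27 (edgeR adjusted p = 0.0377) that did not pass in DESeq2 (adjusted p = 0.0819). Genes of the CDC25 phosphatases, CDK1, CDK2 and WEE1 did not pass, with log2 fold changes from -0.10 to -0.0018.

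Of the 8 genes of checkpoint recovery and turnover, Btrc rose. It encodes an F-box protein that marks claspin and WEE1 for degradation, and its mean rose from 28.1 ± 3.50 to 36.5 ± 2.87 CPM (log2 fold change 0.37, edgeR adjusted p = 0.00256). It did not pass in the limma tests on FPKM (adjusted p = 0.326 and 0.278) or without KO3 (0.32, edgeR adjusted p = 0.0735). Its paralogue Fbxw11, the gene with the highest FPKM of this list by the mean of both genotypes, did not pass (log2 fold change -0.04). By the WT mean Usp7 was higher (29.66, against 29.19 for Fbxw11). Of the 9 genes of other ATR-like kinases and of their folding machinery, Trrap and Ruvbl2 rose. Trrap, a kinase-dead relative of ATR that serves histone acetylation, was at 294.9, 428.8 and 442.4 CPM in WT and 472.4, 477.3 and 489.5 CPM in KO. WT1 lay far below the other WT libraries for this long gene. The log2 fold change was 0.30, and 0.14 without WT1 (edgeR adjusted p = 0.00732). With genes of low counts left out it was 0.31, and its adjusted p went from 0.000148 to 0.0909 (edgeR). Ruvbl2, a folding ATPase, rose from 95.2 ± 5.93 to 110.5 ± 3.23 CPM (edgeR adjusted p = 0.0482), a call that was lost in 14 of 24 alternatives, and Ruvbl1, its partner, did not pass (log2 fold change 0.05).

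The state of the cultures was read from marker lists. Of 27 S-phase genes 1 passed (Usp1, a deubiquitinase, log2 fold change -0.29, edgeR adjusted p = 0.000905), and their summed level lay between 3716 and 3818 CPM for WT, against 3634 to 3653 CPM for KO. Of 18 G2/M genes 1 passed (Kif11, a spindle motor, log2 fold change -0.24, edgeR adjusted p = 0.0120), with sums between 3661 and 3945 CPM for WT, against 3697 to 3754 CPM for KO. The count of 2 over both lists was 5 with DESeq2, 11 without WT1, 1 without KO1 and 0 without KO3. The S-phase sum stood at 97.0% of WT in KO, beside Atr at 78.0%. The genes with the largest differences in mean CPM, picked after their values were seen, were Usp1 (254.2 and 208.5, WT and KO) and Rrm1 (415.2 and 367.3, not passing), while Uhrf1 (310.1 and 345.7, not passing) went the other way. The part of the S-phase sum in the Atr result was not tested. In bulk RNA, fewer cells of a type or phase and less RNA per cell cannot be told apart.

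The libraries held from 12722979 to 19019695 counts in WT and from 15954793 to 21022755 in KO, and the members had from 170 to 6748 counts per library. Mcm8 was at 12.8 to 16.6 CPM in the WT libraries and at 4.12 to 4.45 CPM with the deletion (log2 fold change -1.75), in the direction of the labels. The 8 fibroblast markers summed to at least 24639 CPM in every library, although 3 of them were higher and 3 lower in KO (edgeR adjusted p below 0.05, log2 fold changes from -1.03 to 0.29). Markers of other cells were low but higher in KO for epithelium (5 genes, 0.499 to 1.18 CPM for WT, 5.53 to 6.68 CPM for KO, with Cldn4 at or under 3 counts), mesothelium (4 genes, 6.27 to 7.13 and 49.3 to 56.0 CPM) and neural cells (4 genes, 23.0 to 26.9 and 38.8 to 40.7 CPM, with Sox10 at 0). Sums of 4 endothelial, 4 blood and 4 muscle markers were at most 4.09, 2.83 and 0.301 CPM in any library. The genotypes also differed in Xist (1196 ± 224 CPM, WT, and 481 ± 11.4 CPM, KO) and in the Y-linked Ddx3y (7.77 ± 0.97 and 42.6 ± 5.32 CPM). The part of these differences in the Atr result was not tested.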

How the data were processed

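Bulk RNA-seq of 3 WT and 3 KO MEF libraries was analysed. Per the labels and methods, the authors trimmed the reads with fastp, aligned them with HISAT2 2.0.5 and counted them per gene with featureCounts 1.5.0-p3, and the deposited count table holds these raw counts. The authors also deposited FPKM values, computed with the gene length that the table lists. The processing notes name GRCm38 and the methods an Ensembl release on GRCm39. Of 52081 genes shared with GENCODE M21 (GRCm38), 2.87% had the same coordinates, so the tables' coordinates were not mixed with GRCm38. The strand setting of the counting is not given in the sources used here.

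The 26898 genes with a non-zero FPKM in any library entered 1 fit with edgeR 4.0.16 (TMM factors from 0.980 to 1.01, glmQLFit and glmQLFTest, genotype as the only term, no covariates), and p-values were adjusted over all of them. The prior degrees of freedom were infinite, so that every gene took the spread of the trend (common coefficient of variation 0.0780). Intervals are the log2 fold change with 1.96 SE on each side. The 151 entries that name no Ensembl gene held 0.105% of the counts. Single values and FPKM ratios were compared with exact permutation tests, two-sided. DESeq2 1.42.0, limma 3.58.1, other filters and scalings, thinning to 12722979 counts per library, a block on the replicate number and fits without each library were alternatives. Offsets for gene length (a loess curve per library) and levels per kilobase of the longest coding transcript were added after the data were seen. The edgeR, DESeq2 and limma scripts were tested on simulated data.

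Libraries of the same number in both genotypes did not deviate together (correlations -0.025, -0.0158 and 0.0373 over genes), so they were not treated as pairs. The members are found by symbol alone, but they and the lists were chosen with earlier results of these data known. All members are named, and of each pathway list the genes with an adjusted p below 0.05 (at most 4, by size of change) and the gene with the highest FPKM. Of each cell cycle list only the genes with an adjusted p below 0.05 (at most 3, by size of change) were planned. Rrm1 and Uhrf1, which did not pass, were added after their values were seen. Neighbouring and pseudogene entries of a member were named beside it, and no likeness between genes was measured.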

Additional observations from a re-analysis of the deposited data

How the results depend on the processing

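Of 240 values of members under 24 alternatives, 223 kept their direction and their side of the threshold, 4 lost the threshold, 2 passed it and 11 changed sign, all 11 in genes near 0 that never passed. The count of members that passed, 1, was 0 with limma on log2(FPKM + 1) and on log2(FPKM + 0.1), 0 or 1 without any 1 library, and 1 to 3 without 1 library with the length offset, where 3 came without WT3 (Chek1 at -0.26 and Timeless at 0.20 also passed). Atr was at -0.24 and -0.34 in the limma tests and from -0.45 to -0.26 without 1 library. Sign changes came without 1 library, where log2 fold changes ran from -0.081 to 0.12 for Atm, from -0.071 to 0.017 for Topbp1, from -0.073 to 0.074 for Etaa1 and from -0.099 to 0.040 for Clspn. With the length offset too, the sign turned for Atm (-0.027 without WT1), Etaa1 (0.074, 0.019 and 0.0019 without WT1, KO2 and KO3) and Clspn (0.030 without WT3). The count of DEGs among the members was 0 under every alternative run. With a replicate block, Atr was at -0.35 (edgeR adjusted p = 0.00184) and 1 member passed; the block ended the call of Ruvbl2 (0.22, adjusted p = 0.0546) and of no member. Of the 50 genes of the 6 pathway lists, 5 passed. This count was 3 in each of DESeq2, edgeR's default filter, FPKM above 0 in every library and no filter. It was 1 in each limma test, and from 3 (without any of the KO libraries) to 7 in fits without 1 library. Pkmyt1 and Ruvbl2 lost the threshold in 11 and 14 of 24 alternatives. The count of cell cycle genes that passed, 2, was 5 with DESeq2, 6 and 7 with the length offsets, and from 0 (without KO3) to 11 (without WT1). The cause of these shifts was not tested. With 3 libraries a genotype, an exact test cannot go below 0.1, and the depth limits Chek2 most.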
